A study of Mus musculus with 15 samples.

Results

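RNA of 41 genes of the NRF2 and glutathione systems was compared in the livers of 15 mice by RNA sequencing. The genes were taken by symbol from a list of known roles: NRF2 and its inhibitor KEAP1, glutathione synthesis and the glutathione S-transferases (GSTs), thioredoxin, peroxiredoxins, superoxide dismutases and the enzymes that supply NADPH. All 41 were among the 18510 rows of the expression table. Of these, 40 were expressed highly enough to be tested, as were 10959 genes in all, and Slc7a11 was not. All mice were wild type (WT), 5 in each of 3 groups. The Ctrl mice received a control diet, the Alc mice an alcohol diet, and the Alc UA mice alcohol plus UA, whose full name the labels leave out. The sources used here do not give strain, sex, age, alcohol dose, length of feeding or the time of day of collection.

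Levels are given in FPKM, the fragments assigned to a gene adjusted for gene length and for the size of the library, as mean ± SD (n = 5 mice). Differences between groups are given as log2 differences ± SE on the scale of log2(FPKM + 1), which understates changes of weakly expressed genes. A gene was said to rise or fall where its adjusted p was under 0.05 in limma with Benjamini-Hochberg adjustment over the 10959 genes tested.

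NRF2, encoded by Nfe2l2, is a transcription factor that KEAP1 holds in the cytoplasm and marks for degradation until electrophiles or oxidants modify KEAP1. Freed NRF2 pairs with small MAF proteins at antioxidant response elements and raises transcription of enzymes that make glutathione, conjugate toxicants and reduce peroxides. In liver, ethanol oxidation by cytochrome P450 2E1 produces oxidants, and the glutathione system is a main route for removing them and reactive products of drug metabolism.

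The core of the antioxidant response element, where NRF2 meets its targets, was searched in the promoters of these genes. The form searched was TGAC followed by any 3 bases and GC, on either strand. Other forms of the core were not searched, so a gene without a match may hold one of them. Promoters ran from 250 bases before to 50 bases after the transcription start (RefSeq, GRCm38.p6). The table of promoters held 36 of the 41 genes, and Gclc, Gsr, Prdx6, Gsta4 and Gstt2 had no entry. The core was present in 10 of the 36 genes (27.8%), compared with 14.0% of 27025 genes in the table. Counted by promoter, it was present in 10 of 49 promoters of these genes, compared with 12.4% of 32851 promoters of the same length. A match of letters is a description and does not show binding, and its absence says only that the letters are not in this window. The promoters below are those of 3 genes that rose or fell on alcohol, with matches to the core in capitals. Gsta3 (chr1:21240335-21240634, plus strand) and Mgst1 (chr6:138140277-138140576, plus strand) each held 1 match, on the gene's strand in Gsta3 and on the opposite strand in Mgst1. A second Mgst1 promoter (chr6:138141337-138141636, plus strand), not shown, held none. Gstt3 (chr10:75781373-75781672, minus strand) held none.
Gsta3: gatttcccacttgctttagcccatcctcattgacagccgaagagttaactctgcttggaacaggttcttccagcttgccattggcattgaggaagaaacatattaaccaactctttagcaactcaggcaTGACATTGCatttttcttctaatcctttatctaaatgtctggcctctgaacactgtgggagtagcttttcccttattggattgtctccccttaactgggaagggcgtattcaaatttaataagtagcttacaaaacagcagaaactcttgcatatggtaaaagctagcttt
Mgst1: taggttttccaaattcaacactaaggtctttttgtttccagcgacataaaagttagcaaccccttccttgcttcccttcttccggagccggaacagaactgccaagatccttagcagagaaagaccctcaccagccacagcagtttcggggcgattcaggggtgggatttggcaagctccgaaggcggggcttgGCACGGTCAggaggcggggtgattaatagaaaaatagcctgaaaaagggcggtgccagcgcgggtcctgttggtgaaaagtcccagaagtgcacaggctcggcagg
Gstt3: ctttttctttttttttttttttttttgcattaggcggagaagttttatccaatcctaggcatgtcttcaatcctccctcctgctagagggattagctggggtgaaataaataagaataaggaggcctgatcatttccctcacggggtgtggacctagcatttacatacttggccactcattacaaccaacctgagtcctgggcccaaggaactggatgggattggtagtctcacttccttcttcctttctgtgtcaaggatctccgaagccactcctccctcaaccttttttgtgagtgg

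Matches with their flanks are shown for 5 genes of the NRF2 core, thioredoxin and peroxiredoxin groups, again with the core in capitals and reading along the gene's strand. They lie at chr2:75704883-75704913 (Nfe2l2, minus strand), chr2:152105540-152105572 (Srxn1, plus strand), chr3:122245411-122245443 (Gclm, plus strand), chr10:82859102-82859134 (Txnrd1, plus strand) and chr4:116685454-116685486 (Prdx1, plus strand). In Srxn1 the core lay after the transcription start, at positions 29 to 37, and in the other 4 genes it lay before it. The remaining matches were in Pgd, Sod1 and G6pdx. Further promoters of Txnrd1 and Pgd held no match. Nqo1 and Keap1 had no match in this window.
Nfe2l2: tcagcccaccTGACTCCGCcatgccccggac
Srxn1: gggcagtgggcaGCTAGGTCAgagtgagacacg
Gclm: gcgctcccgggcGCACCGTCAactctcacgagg
Txnrd1: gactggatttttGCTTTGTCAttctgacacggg
Prdx1: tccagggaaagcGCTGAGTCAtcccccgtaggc

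Summed FPKM ran from 551153 to 668832 over the libraries, of which the 41 genes made up 1.56% to 2.66%. Read depth cannot be seen from FPKM. Alb, a hepatocyte marker, was at 14848 FPKM or more in every library. Of 9 hepatocyte markers tested, 1 rose and 2 fell in Alc relative to Ctrl. Groups differed in the markers of some other cells and of 1 liver zone. In Alc against Ctrl, 0 rose and 1 fell in each of 3 lists, with 8 periportal, 9 stellate cell and 6 cholangiocyte markers tested. Of 11 Kupffer cell markers, 0 rose and 0 fell. The summed level of 12 sinusoidal endothelial markers was 156 to 447 FPKM in Ctrl, 66.8 to 154 in Alc and 71.8 to 93.3 in Alc UA, and that of 10 erythroid markers was 1438 to 8808, 582 to 1010 and 354 to 1043. Of the 7 erythroid markers tested, the 4 globin genes and Alas2 fell and Car1 rose in both alcohol groups relative to Ctrl, and Car2 did not pass. The summed level of 10 pericentral hepatocyte markers was 3252 to 6987 FPKM in Ctrl, 8523 to 10409 in Alc and 9501 to 11952 in Alc UA, so that both alcohol groups lay above Ctrl. Of these 10, 5 rose and 2 fell in Alc, and Cyp2e1, the most abundant, rose by 1.04 ± 0.18 (adjusted p = 0.00088). Among 14 circadian clock genes tested, 9 were higher and 4 lower in Alc than in Ctrl. The counts of these lists stand beside 10.6% of all genes tested that rose and 22.8% that fell in Alc. In Alc UA the shares were 10.5% and 32.1%. The part of the marker and clock differences in the results that follow was not tested. In whole liver, fewer cells of a type and less RNA per cell cannot be told apart. Ctrl 1 and Alc 4 stood apart in the 41 genes: Ctrl 1 held the highest level of all 15 libraries in 17 of the 40 genes tested, and Alc 4 in 12.

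On the alcohol diet 4 of the 40 genes rose and 4 fell. The GST genes Gstt3, Gsta3 and Gstz1 and the peroxiredoxin gene Prdx6 were higher in Alc than in Ctrl, while Gclc, the catalytic subunit of glutathione synthesis, Gsr, which regenerates glutathione, and the GST genes Gstp1 and Mgst1 were lower. Of all genes tested, 10.6% rose and 22.8% fell, so that the 4 higher genes stood near the background and the 4 lower genes below it. The median log2 difference of the 40 genes was -0.09, beside -0.12 over all genes tested. Groups did not overlap in Gstt3 and Gsr, and 15.8% of all genes tested showed no overlap in either direction. Scaling libraries by median-of-ratios size factors moved the median of all genes to 0.02 and gave 9 higher and 3 lower among the 40 genes. Over all genes that scaling turned 1157 higher and 2497 lower into 2206 and 1672, quantile normalization gave 2049 and 2024, and scaling to the same FPKM sum gave 1602 and 1294.

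**Figure D1:**
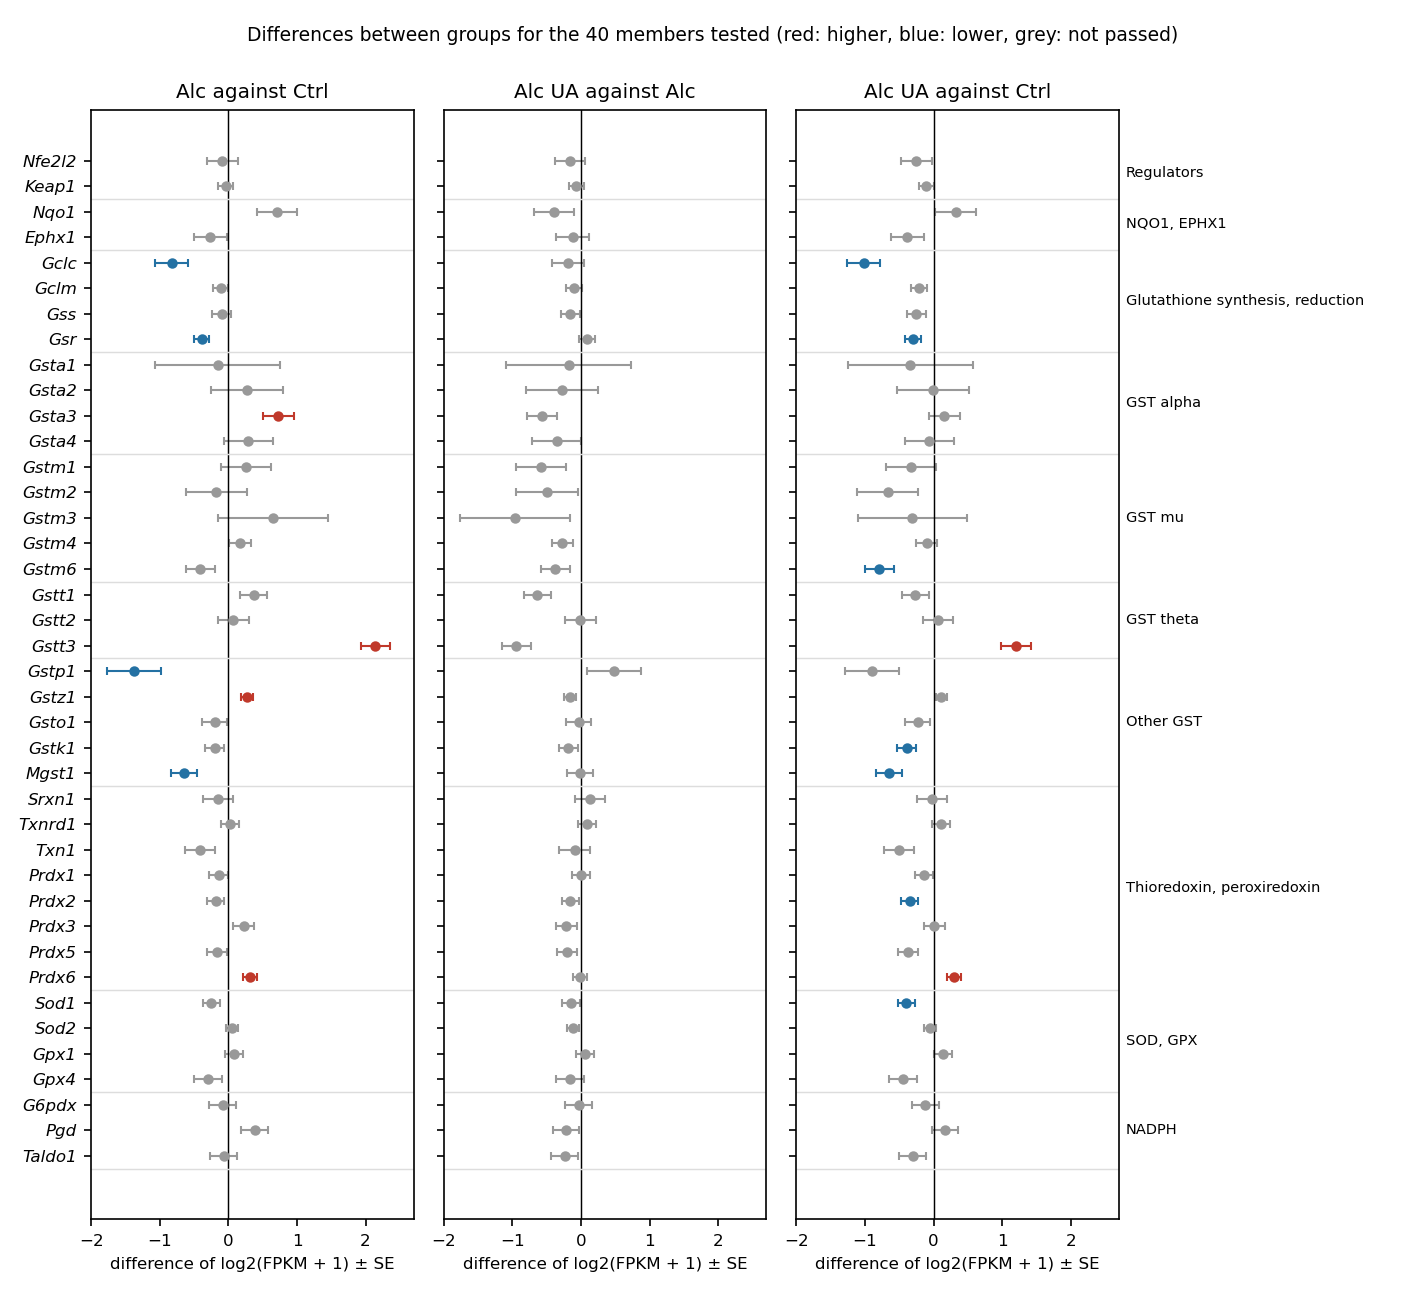
Log2 differences of log2(FPKM + 1) ± SE for the 40 genes tested, by role, in the 3 comparisons (n = 5 mice per group). Red points passed as higher, blue as lower and grey did not pass; Gstt3 lies farthest to the right against Ctrl, and 0 points passed for Alc UA against Alc.

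Neither NRF2 nor its inhibitor passed in any comparison. Nfe2l2 was at 61.04, 33.2, 32.6, 24.8 and 19.9 FPKM in Ctrl 1 to 5, at 28.5, 29, 32.4, 34.8 and 25.96 in Alc 1 to 5, and at 23.2, 32.3, 25.9, 34.1 and 20.5 in Alc UA 1 to 5. Ctrl 1 was far above the other 14 livers, and the 3 groups overlapped. Keap1 was at 18.7, 16.01, 16.3, 15.01 and 15.97 FPKM in Ctrl 1 to 5, at 14.2, 15.2, 16.9, 19.01 and 14.5 in Alc 1 to 5, and at 12.7, 13.2, 16.9, 18.8 and 14.7 in Alc UA 1 to 5. Keap1, which targets NRF2 for degradation, stayed within 12.7 to 19.0 FPKM in all 15 livers. The log2 difference of Alc from Ctrl was -0.09 ± 0.22 for Nfe2l2 and -0.04 ± 0.11 for Keap1 (adjusted p = 0.79 and 0.80), with 95% intervals of -0.56 to 0.39 and -0.27 to 0.19. From Alc to Alc UA the values were -0.16 ± 0.22 and -0.07 ± 0.11 (adjusted p = 0.92 and 0.93).

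Nqo1 encodes a quinone reductase and is widely used as an indicator of NRF2 activity. Nqo1 was at 6.47, 3.57, 2.32, 2.99 and 2.07 FPKM in Ctrl 1 to 5, at 4.01, 2.94, 9.13, 11.3 and 5.7 in Alc 1 to 5, and at 4, 3.98, 5.27, 5.68 and 3.05 in Alc UA 1 to 5. Its level in Alc reached above every control in Alc 3 and Alc 4, and the other Alc livers lay within the range of Ctrl. The mean was 6.61 ± 3.51 in Alc against 3.48 ± 1.77 in Ctrl, a log2 difference of 0.71 ± 0.29 (adjusted p = 0.071). Nqo1 passed without Ctrl 1 (adjusted p = 0.025), without Alc 2 (0.026), without Ctrl 1 and Ctrl 5 (0.049), without Ctrl 1 and Alc 4 (0.047) and under each of the 3 other scalings (0.017 to 0.042), within a range of 0.017 to 0.17 over 27 alternatives. In Alc UA it was 4.40 ± 1.07, between the other group means, with log2 differences of -0.39 ± 0.29 from Alc and 0.32 ± 0.29 from Ctrl (adjusted p = 0.86 and 0.39). Single livers moved these values: the difference from Ctrl was 0.52 without Ctrl 1 and 0.20 without Ctrl 5, and that from Alc was -0.60 without Alc 2, -0.26 without Alc 3 and -0.19 without Alc 4. Ephx1, the microsomal epoxide hydrolase, ranged from 138 to 376 FPKM and did not pass in any comparison. With library weights it passed in Alc against Ctrl (adjusted p = 0.0067). In Alc UA against Ctrl it passed in 2 of 27 alternatives (0.017 and 0.043).

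**Figure D2:**
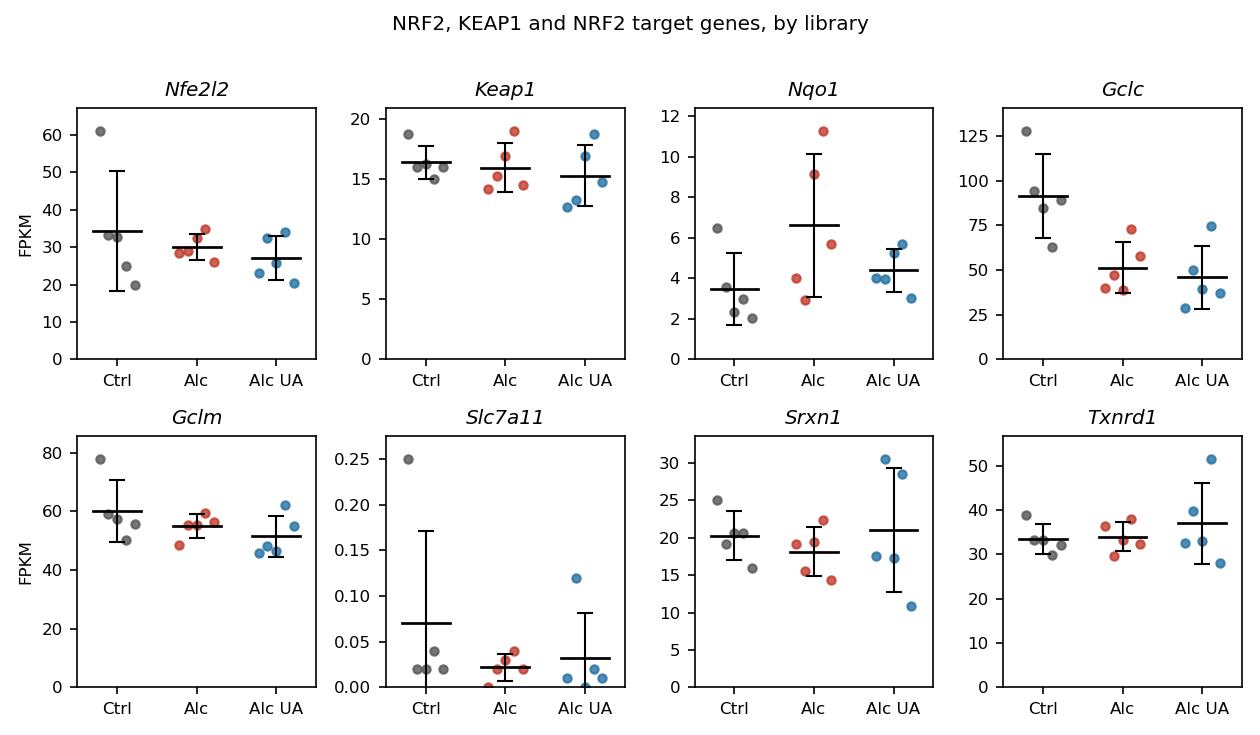
FPKM in every liver for NRF2, KEAP1 and 6 NRF2 target genes (points, 5 mice per group; horizontal lines are means and bars are SD; linear axes from 0). Gclc lies lower in both alcohol groups, Nqo1 is spread widely in Alc, and Slc7a11 stays at or below 0.25 FPKM in every liver.

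Glutathione is made by glutamate-cysteine ligase, whose catalytic subunit is encoded by Gclc and modifier subunit by Gclm, followed by glutathione synthetase, encoded by Gss. Gclc was at 128, 93.96, 84.5, 62.7 and 89.2 FPKM in Ctrl 1 to 5, at 39.7, 47.3, 38.99, 72.8 and 57.8 in Alc 1 to 5, and at 28.8, 49.8, 39.5, 74.4 and 37.1 in Alc UA 1 to 5. All controls except Ctrl 4 were above every Alc and Alc UA liver. Gclc fell by 0.83 ± 0.24 in Alc and by 1.02 ± 0.24 in Alc UA relative to Ctrl (adjusted p = 0.016 and 0.0037); by group means it was 1.79-fold lower in Alc. The call in Alc was lost without Ctrl 1 and Ctrl 5 (adjusted p = 0.071; range 0.0019 to 0.071 over 27 alternatives), and that in Alc UA was not lost under any of the 27. Gclm was at 77.9, 59.2, 57.5, 50.2 and 55.8 FPKM in Ctrl 1 to 5, at 48.5, 55.2, 55.3, 59.6 and 56.4 in Alc 1 to 5, and at 46.01, 48.1, 46.6, 62.2 and 54.9 in Alc UA 1 to 5. Gclm overlapped among all groups and did not pass, with log2 differences from Ctrl of -0.11 ± 0.12 in Alc and -0.21 ± 0.12 in Alc UA (adjusted p = 0.47 and 0.15).

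The ratio of Gclc to Gclm, in FPKM, was 1.25 to 1.64 in the 5 Ctrl livers, 0.706 to 1.22 in Alc and 0.626 to 1.197 in Alc UA. No alcohol liver reached the lowest control; the ratio was given as a description and no test was made of it. Gss did not pass and ranged from 20.8 to 40 FPKM. Without Alc UA 3 it passed in Alc UA against Ctrl (adjusted p = 0.038). Slc7a11, the cystine transporter that feeds glutathione synthesis, was at 0.25, 0.020, 0.020, 0.040 and 0.020 FPKM in Ctrl 1 to 5, at 0, 0.020, 0.030, 0.040 and 0.020 in Alc 1 to 5, and at 0.010, 0.12, 0, 0.020 and 0.010 in Alc UA 1 to 5. It was too low in every liver for a test.

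Gsr encodes glutathione reductase, which returns oxidised glutathione to its reduced form with NADPH. Gsr was at 25.4, 24.7, 21.99, 24.7 and 23.01 FPKM in Ctrl 1 to 5, at 16.9, 16.2, 18.9, 20.6 and 17.8 in Alc 1 to 5, and at 17.3, 22.6, 19.8, 23.3 and 14.5 in Alc UA 1 to 5. Every Alc liver was below every Ctrl liver, and Alc UA overlapped with both. Gsr fell by 0.39 ± 0.11 in Alc and by 0.30 ± 0.11 in Alc UA relative to Ctrl (adjusted p = 0.017 and 0.042). These decreases were larger than the median of all genes by 0.27 and 0.14. The call in Alc was lost with size factors and with equal FPKM sums (adjusted p = 0.074 and 0.13). The call in Alc UA was lost in 14 of 27 alternatives, with any 1 of Ctrl 1, Ctrl 2, Ctrl 4 or Alc 5, or replicate 1, 3 or 5 of Alc UA, left out (adjusted p = 0.052 to 0.115, and 0.082 without Ctrl 1) and with size factors (0.58).

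GSTs join glutathione to electrophiles, and their classes are named by Greek letters. Gstt3 of the theta class, on chromosome 10 beside Gstt1 and Gstt2, had the largest rise of the 40 genes. Gstt3 was at 18.1, 8.76, 10.4, 7.46 and 14.3 FPKM in Ctrl 1 to 5, at 46.9, 47.5, 61.6, 45.9 and 66.6 in Alc 1 to 5, and at 33.6, 25.5, 23.4, 36.9 and 19.9 in Alc UA 1 to 5. The 3 groups did not overlap with each other: all Ctrl livers were lowest, all Alc livers highest and all Alc UA livers in between. The mean was 11.8 ± 4.35 in Ctrl, 53.7 ± 9.70 in Alc and 27.9 ± 7.12 in Alc UA. Gstt3 rose 4.55-fold in Alc (log2 difference 2.14 ± 0.21, adjusted p = 1.4e-05) and 2.36-fold in Alc UA (1.2025 ± 0.21, adjusted p = 0.00066) relative to Ctrl, and these calls held under all 27 alternatives. Between Alc UA and Alc the log2 difference was -0.94 ± 0.21 (95% interval -1.39 to -0.49). Its adjusted p was 0.27, from 0.070 to 0.75 over the alternatives, so it did not pass in any. Of the 50-base stretches of Gstt3 transcripts in GENCODE M21, 20.6% are also found in other genes, mostly in the predicted gene Gm20441, so reads could be divided between them.

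Gstt1 and Gstt2 were more abundant than Gstt3 and did not pass. Gstt1 was 218 ± 79.2 in Ctrl, 274.6 ± 53.3 in Alc and 175.6 ± 29.2 in Alc UA, and Gstt2 was 83.0 ± 20.7, 87.4 ± 25.6 and 87.1 ± 23.1. Gstt3 made up 2.60% to 5.31% of the summed theta FPKM in Ctrl, 9.93% to 15.1% in Alc and 7.07% to 12.2% in Alc UA. For Gstt1 the log2 difference of Alc from Ctrl was 0.37 ± 0.20 (adjusted p = 0.15), and it passed in 6 of 27 alternatives (0.0065 to 0.036). Without Ctrl 1, the control in which it was highest at 355 FPKM, the difference was 0.56 (adjusted p = 0.016). From Ctrl to Alc UA the difference was -0.26, and -0.07 without Ctrl 1. Gstt1 in Alc UA lay below Alc by a log2 difference of -0.64 ± 0.20 (adjusted p = 0.67, from 0.11 to 0.99 over the alternatives).

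Gsta3 carried 80.4% to 97.3% of the alpha-class FPKM in each liver. Gsta3 was at 658, 749.8, 400.4, 358 and 501 FPKM in Ctrl 1 to 5, at 668, 734, 775, 1188 and 984 in Alc 1 to 5, and at 646, 419.9, 478, 741 and 637 in Alc UA 1 to 5. Only Ctrl 2 among the controls was above the lower Alc livers. Gsta3 rose 1.63-fold in Alc, from 533 ± 167 to 869.9 ± 213 (log2 difference 0.73 ± 0.22, adjusted p = 0.021). The call was lost without Ctrl 3, Ctrl 4 or Alc 5 (adjusted p = 0.052, 0.0595 and 0.054) and with library weights (0.095). In Alc UA it was 584 ± 132, with log2 differences of 0.16 ± 0.22 from Ctrl and -0.57 ± 0.22 from Alc (adjusted p = 0.59 and 0.79). Gsta4, which conjugates the lipid peroxidation product hydroxynonenal, ranged from 13.8 to 74.8 FPKM and did not pass. Gsta1 and Gsta2 varied from 0 to 41.3 and from 3.72 to 41.2 FPKM between livers, and 89.7% and 47.4% of their 50-base stretches are shared with other genes, so neither is reported as a separate gene with certainty.

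The mu class was dominated by Gstm1, at 77.9% to 89.97% of its FPKM. Gstm6 was at 64.8, 37.8, 32.4, 30.8 and 40.6 FPKM in Ctrl 1 to 5, at 21.7, 33.8, 25.8, 39.1 and 30.6 in Alc 1 to 5, and at 26.2, 19.3, 33.5, 17.96 and 19.2 in Alc UA 1 to 5. Ctrl 1 was highest, and most Alc UA livers were below all controls. Gstm6 fell by 0.79 ± 0.21 in Alc UA relative to Ctrl (23.2 ± 6.60 against 41.3 ± 13.7, adjusted p = 0.0081, at most 0.044 over 27 alternatives). In Alc the log2 difference was -0.41 ± 0.21 (adjusted p = 0.14). Gstm1, Gstm2, Gstm3 and Gstm4 did not pass. Gstm1 reached 1247 FPKM in Ctrl 1, 1494 in Alc 4 and 1209 in Alc UA 3, against 368 to 922 in the other 12 livers, and Gstm2 and Gstm3 were also highest of their groups in these 3 livers. Gstm3 shares 28.8% and Gstm1 19.9% of their 50-base stretches with other genes, including each other.

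Gstp1, the pi-class enzyme, is more abundant in male than in female mouse liver. Gstp1 was at 1516, 3662, 1909, 4423 and 1449 FPKM in Ctrl 1 to 5, at 896, 662, 2115, 813 and 557 in Alc 1 to 5, and at 1121, 936, 1469, 2275 and 859 in Alc UA 1 to 5. Alc 3 lay within the range of Ctrl, and the other 4 Alc livers were below all controls. Gstp1 fell by 1.38 ± 0.39 in Alc relative to Ctrl (1009 ± 632 against 2592 ± 1363, adjusted p = 0.015, at most 0.044 over 27 alternatives), 2.57-fold by means. In Alc UA the log2 difference from Ctrl was -0.90 ± 0.39 (adjusted p = 0.074), and it passed without Ctrl 5, Alc 3 or Alc UA 4 and in 3 further alternatives (0.0056 to 0.046). Gstp1 made up 31.2% to 70.7% of the summed FPKM of the cytosolic GST classes in Ctrl, 15.2% to 45.5% in Alc and 31.5% to 50.8% in Alc UA. Its 50-base stretches are shared with Gstp2 for 51.0%, and Gstp2 itself was 23.8 ± 13.5 in Ctrl and 7.41 ± 4.75 in Alc (log2 difference -1.59 ± 0.50, adjusted p = 0.024); Gstp2 was singled out for this overlap after its values were seen.

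Mgst1, a membrane-bound transferase of the endoplasmic reticulum and mitochondria, was the most abundant of the 41 genes in all 3 groups. Mgst1 was at 6618, 4067, 3107, 4952 and 3935 FPKM in Ctrl 1 to 5, at 2129, 2896, 2742, 3682 and 2816 in Alc 1 to 5, and at 2792, 3065, 2954, 2662 and 2509.8 in Alc UA 1 to 5. All Alc UA livers were below all controls, and among Alc livers Alc 4 alone reached the range of Ctrl. Mgst1 fell by 0.64 ± 0.19 in Alc and by 0.65 ± 0.19 in Alc UA (adjusted p = 0.017 and 0.012), from 4536 ± 1335 in Ctrl to 2853 ± 554 and 2797 ± 222. The call in Alc was lost without Ctrl 1 and Ctrl 5, without the filter and after quantile normalization (adjusted p = 0.053, 0.057 and 0.15), and that in Alc UA with size factors (0.073; from 0.0038 over the alternatives).

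Gstz1 acts in tyrosine breakdown as maleylacetoacetate isomerase. Gstz1 was at 420.1, 368, 346, 380.2 and 394 FPKM in Ctrl 1 to 5, at 419, 450.3, 469, 485 and 481 in Alc 1 to 5, and at 430.1, 391, 423, 437 and 384 in Alc UA 1 to 5. Only Ctrl 1 reached the lowest Alc liver. Gstz1 rose by 0.27 ± 0.09 in Alc (460.9 ± 26.9 against 382 ± 28.0, adjusted p = 0.024), a call lost without Ctrl 2, Ctrl 3 or Alc 5 and with the 2 groups alone (adjusted p = 0.054 to 0.060). It was 413 ± 23.9 in Alc UA and did not pass against either group. In Alc UA against Ctrl it passed with size factors and after quantile normalization (adjusted p = 0.0069 to 0.014).

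Gstk1 is a kappa-class transferase of mitochondria and peroxisomes. Gstk1 was at 165, 119.6, 107, 113 and 116 FPKM in Ctrl 1 to 5, at 98.3, 102, 134, 107 and 95.8 in Alc 1 to 5, and at 96.9, 91.1, 111, 100.5 and 72.2 in Alc UA 1 to 5. Ctrl 1 was the highest, and 4 Alc UA livers were below every control. Gstk1 fell by 0.39 ± 0.14 in Alc UA relative to Ctrl (94.4 ± 14.5 against 124 ± 23.5, adjusted p = 0.033). This call was lost in 11 of 27 alternatives, without Ctrl 1, Ctrl 2 or replicate 1, 2 or 5 of Alc UA among them (adjusted p = 0.051 to 0.093, and 0.087 without Ctrl 1). With size factors the difference was -0.15 (adjusted p = 0.34). Gsto1, which reduces dehydroascorbate, ranged from 63.1 to 130.1 FPKM and did not pass. With library weights it passed in Alc against Ctrl (adjusted p = 0.030).

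**Figure D3:**
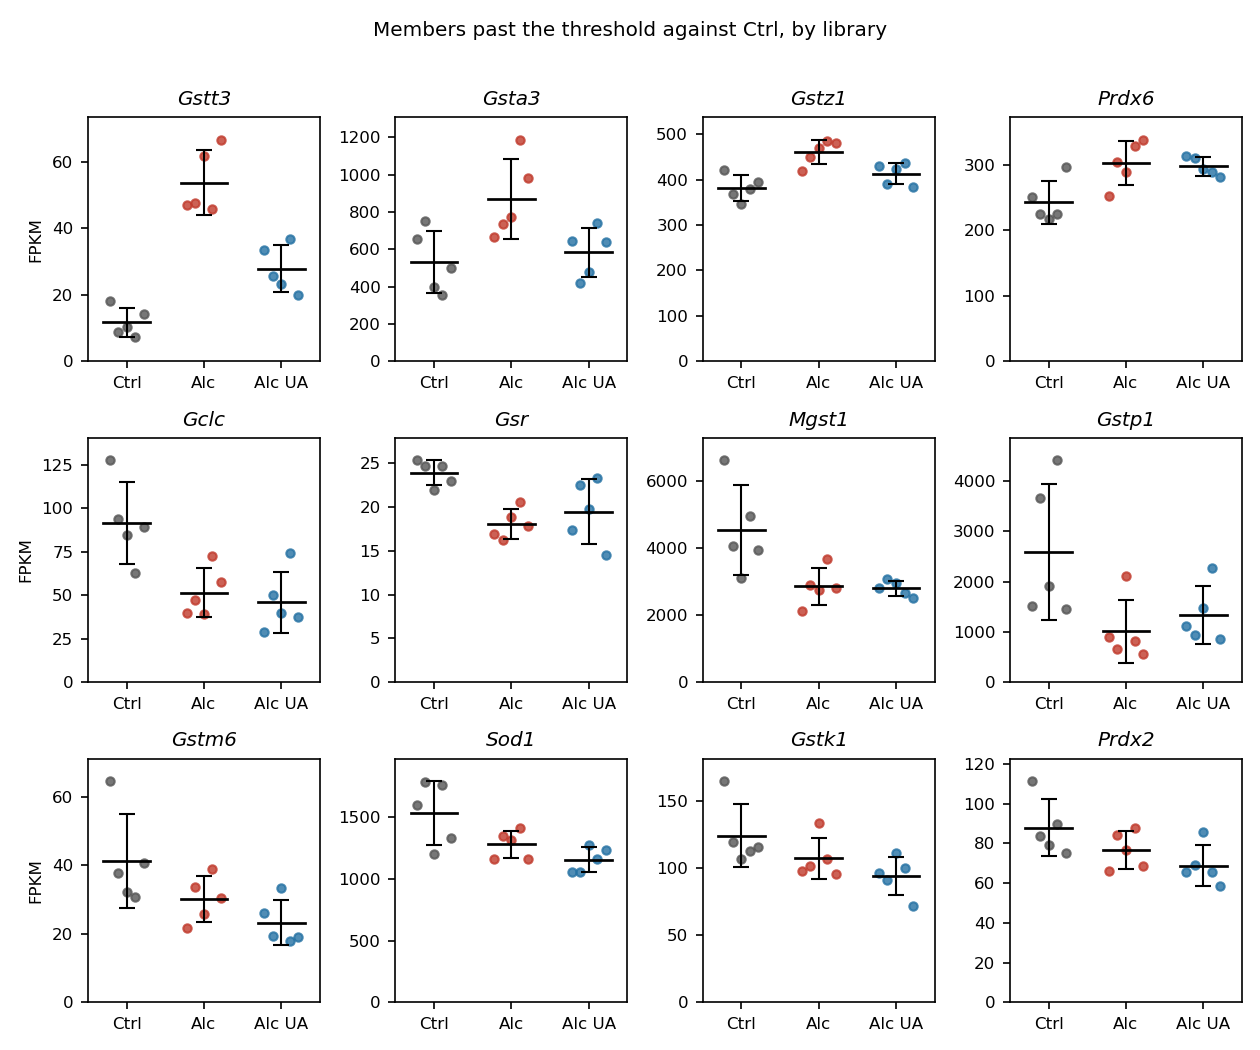
FPKM in every liver for the 12 genes that passed in Alc or Alc UA against Ctrl (points, 5 mice per group; horizontal lines are means and bars are SD; linear axes from 0). Gstt3 separates the 3 groups, Mgst1 separates Alc UA from Ctrl, and Gsr separates Alc from Ctrl, while the other genes overlap.

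Thioredoxin and the peroxiredoxins reduce peroxides alongside glutathione. Srxn1, the sulfiredoxin that restores overoxidised peroxiredoxins, and Txnrd1, the cytosolic thioredoxin reductase, are established NRF2 targets. Srxn1 was at 25.01, 19.1, 20.6, 20.6 and 16 FPKM in Ctrl 1 to 5, at 19.1, 15.6, 19.4, 22.4 and 14.3 in Alc 1 to 5, and at 17.6, 30.5, 17.3, 28.6 and 10.9 in Alc UA 1 to 5. Txnrd1 was at 38.9, 33.4, 33.3, 29.9 and 32.1 FPKM in Ctrl 1 to 5, at 36.5, 29.7, 33.4, 38.1 and 32.5 in Alc 1 to 5, and at 32.5, 39.9, 33.1, 51.6 and 28 in Alc UA 1 to 5. Both overlapped among all groups, with the widest spread in Alc UA, where Alc UA 2 and Alc UA 4 were high for both. The log2 differences of Alc from Ctrl were -0.15 ± 0.22 for Srxn1 and 0.02 ± 0.13 for Txnrd1 (adjusted p = 0.61 and 0.91), and those of Alc UA from Ctrl -0.03 ± 0.22 and 0.11 ± 0.13 (adjusted p = 0.93 and 0.52). Txnrd1 passed with size factors in Alc UA against Ctrl (adjusted p = 0.022).

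Prdx6 encodes a peroxiredoxin that works with glutathione and reduces oxidised phospholipids. Prdx6 was at 252, 225, 217, 226 and 297 FPKM in Ctrl 1 to 5, at 253, 304, 289, 329.7 and 339 in Alc 1 to 5, and at 314, 311, 294, 289 and 281 in Alc UA 1 to 5. Ctrl 5 was the only control within the alcohol range. Prdx6 rose by 0.32 ± 0.10 in Alc and by 0.30 ± 0.10 in Alc UA (adjusted p = 0.030 and 0.031), from 243 ± 32.6 to 303 ± 34.2 and 298 ± 14.1. Without Ctrl 2, Ctrl 3, Ctrl 4, Alc 2, Alc 4 or Alc 5 the call in Alc was lost, and without Ctrl 2, Ctrl 3, Ctrl 4 or replicate 1 or 2 of Alc UA that in Alc UA (adjusted p = 0.058 to 0.083 and 0.062 to 0.073). Relative to the median of all genes the rises were 0.44 and 0.46.

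Prdx2 is a cytosolic peroxiredoxin that is also abundant in red cells. Prdx2 was at 112, 83.6, 79.2, 89.7 and 75.1 FPKM in Ctrl 1 to 5, at 66.02, 84.4, 76.8, 87.7 and 68.6 in Alc 1 to 5, and at 65.6, 68.9, 85.8, 65.6 and 58.4 in Alc UA 1 to 5. Alc UA 3 was the highest Alc UA liver and lay within the controls, and the other 4 were below all of them. Prdx2 fell by 0.34 ± 0.12 in Alc UA relative to Ctrl (adjusted p = 0.036), a call lost in 13 of 27 alternatives, including without Ctrl 1, Ctrl 2, Ctrl 4 or replicate 1, 2, 4 or 5 of Alc UA (adjusted p = 0.053 to 0.097, the highest without Ctrl 1). With size factors the difference was -0.10 (adjusted p = 0.42). The summed erythroid markers, given above, were lower in every Alc UA liver than in every Ctrl liver, and their part in the Prdx2 result was not tested. Txn1 was 216 ± 90.5 in Ctrl, 156 ± 35.7 in Alc and 145 ± 24.4 in Alc UA and did not pass (adjusted p = 0.16 and 0.075 against Ctrl). Prdx1, Prdx3 and Prdx5 did not pass, at 350 to 558, 64.7 to 136 and 137 to 299 FPKM. In Alc against Ctrl, Txn1 and Prdx1 passed with library weights (adjusted p = 0.024 and 0.049). Prdx3 passed there with size factors (0.031). In Alc UA against Ctrl, Txn1 and Prdx5 each passed in 4 of 27 alternatives (0.018 to 0.048 and 0.024 to 0.042).

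Sod1, the cytosolic superoxide dismutase, was among the 4 most abundant of the 41 genes in each group. Sod1 was at 1597, 1787, 1203, 1765 and 1330.3 FPKM in Ctrl 1 to 5, at 1165, 1353, 1313, 1411 and 1161 in Alc 1 to 5, and at 1061, 1055, 1276, 1164 and 1235 in Alc UA 1 to 5. Ctrl 1, Ctrl 2 and Ctrl 4 were above all alcohol livers. Sod1 fell by 0.39 ± 0.13 in Alc UA relative to Ctrl (1158 ± 99.9 against 1537 ± 261, adjusted p = 0.022), and its log2 difference in Alc was -0.25 ± 0.13 (adjusted p = 0.14). The call was lost without Ctrl 2, Ctrl 4 or replicate 1 or 2 of Alc UA (adjusted p = 0.052 to 0.061) and with size factors (0.43). In Alc against Ctrl, Sod1 passed with library weights (adjusted p = 0.0045). Sod2, its mitochondrial counterpart, ranged from 46.8 to 64.3 FPKM, and the glutathione peroxidase genes Gpx1 and Gpx4 from 1033 to 1669 and from 236 to 574 FPKM. None of these 3 passed. Gpx4, which reduces lipid hydroperoxides, shares 51.4% of its 50-base stretches with a pseudogene, and Sod1 23.1%.

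NADPH for glutathione and thioredoxin reductase comes in part from the pentose phosphate pathway. G6pdx, its entry enzyme, was at 0.95 to 3.49 FPKM, Pgd at 8.29 to 21.8 and Taldo1 at 44.9 to 100.2, and 0 of the 3 passed in any comparison. The log2 difference of Pgd in Alc from Ctrl was 0.38 ± 0.19 (adjusted p = 0.13), from 0.0050 to 0.31 over 27 alternatives. It passed in 5 of them, without Ctrl 1 (0.042) and with library weights (0.0050) among them, while without Alc 4 the difference was 0.23 (adjusted p = 0.31). In Alc UA the difference of Pgd from Ctrl was 0.16, and with 1 liver left out it lay between 0.07 (without Alc UA 3) and 0.30 (without Ctrl 1). Ctrl 1 and Alc 4 were the highest of their groups for all 3 genes.

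Between Alc UA and Alc, which asks what changed when UA was added to the alcohol diet, 0 of the 40 genes rose and 0 fell in limma. Over all genes tested 1 rose (0.00912%) and 0 fell (0%). At an unadjusted p under 0.05 there were 3 of the 40 genes, Gstt3, Gstt1 and Gsta3, all lower in Alc UA, beside 664 of all genes, or 6.06%. Gstt3 alone of the 40 showed no overlap between the 2 groups, as did 1.18% of all genes tested. The median log2 difference was -0.16, beside -0.05 over all genes tested. With 1 liver left out, the median of the 40 genes lay between -0.21 (without Alc UA 3) and -0.08 (without Alc 4). The medians of all genes there were -0.07 and -0.02. With 5 mice a group, 95% intervals of single genes were wide: -0.70 to 0.31 for Gclc, -1.01 to 0.23 for Nqo1 and -0.35 to 1.31 for Gstp1. The absence of a call does not show that these genes were alike in the 2 groups.

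Between Alc UA and Ctrl, 2 of the 40 genes rose and 7 fell. Gstt3 and Prdx6 were higher, and Gclc, Gstm6, Mgst1, Sod1, Gstk1, Prdx2 and Gsr were lower. Over all genes tested 10.5% rose and 32.1% fell, so both shares of the 40 genes were below the background. The median was -0.24, beside -0.16 over all genes. Gstt3 and Mgst1 showed no overlap, compared with 20.2% of all genes tested. With size factors 5 were higher and 2 lower, among all genes 2738 and 2022 in place of 1152 and 3521, while quantile normalization gave 2420 and 2430 among all genes. This comparison shares the Ctrl livers with that of Alc and Ctrl. No overlap of calls between them is read as a result.

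Other genes of the same pathways were read from lists chosen for this description, beside the 10.6% of all genes that rose and 22.8% that fell in Alc, and the 10.5% and 32.1% in Alc UA, relative to Ctrl. Among 10 tested regulators of NRF2 in Alc against Ctrl, 2 rose and 1 fell (median 0.12). Bach1, a repressor that competes with NRF2 at its elements, rose by 0.61 ± 0.13, from 5.91 ± 0.82 to 9.48 ± 0.85 FPKM (adjusted p = 0.0031). Maff, a small MAF protein, rose by 1.54 ± 0.43, from 1.45 ± 0.33 to 6.40 ± 2.57 (adjusted p = 0.013). Sqstm1, which binds KEAP1, fell by 0.39 ± 0.14 (adjusted p = 0.045). In Alc UA against Ctrl, Bach1 rose by 0.99 ± 0.13 and Maff by 2.48 ± 0.43, and Rbx1, a subunit of the ubiquitin ligase that acts on NRF2, fell by 0.48 ± 0.12 (adjusted p = 8.4e-05, 0.00055 and 0.0062).

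Of 18 other NRF2 targets, 3 rose and 1 fell in Alc (median -0.19), and 3 rose and 4 fell in Alc UA, relative to Ctrl, where 10.6% and 22.8% of all genes rose and fell in Alc and 10.5% and 32.1% in Alc UA. The conjugate exporters Abcc2 and Abcc3 rose by 1.12 ± 0.21 and 1.03 ± 0.22 in Alc, and the aldo-keto reductase Akr1b8 fell by 1.101 ± 0.29 (adjusted p = 0.0013, 0.0034 and 0.0096). Hmox1, heme oxygenase, was 16.1 ± 9.40 in Ctrl, 11.5 ± 3.79 in Alc and 25.6 ± 20.4 in Alc UA and did not pass; it was named after its values were seen. In the list of 24 other glutathione genes, 1 rose and 3 fell in Alc (median -0.12), and 0 rose and 6 fell in Alc UA; the 6 were a smaller share of the list than the 32.1% of all genes that fell. Slc3a2, the partner chain of the cystine transporter, was 21.5 ± 5.47 in Ctrl, 12.04 ± 2.76 in Alc and 11.2 ± 1.86 in Alc UA, and fell by 0.78 ± 0.17 and 0.86 ± 0.17 (adjusted p = 0.0031 and 0.0011). Hagh, a hydrolase of the glutathione-dependent glyoxalase route, fell by 0.33 ± 0.10, while the glutaredoxin gene Glrx3 rose by 0.23 ± 0.06 in Alc (adjusted p = 0.019 and 0.014).

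For 15 other thioredoxin and peroxide genes, 1 rose and 2 fell in Alc (median 0.00), and 1 and 3 in Alc UA. Prdx4, the peroxiredoxin of the endoplasmic reticulum, fell by 0.72 ± 0.14 in Alc and by 0.65 ± 0.14 in Alc UA (adjusted p = 0.0016 and 0.0019). Selenop, the plasma selenium carrier, rose by 0.43 ± 0.13 in Alc, and Msrb3, a methionine sulfoxide reductase, fell by 0.56 ± 0.16 (adjusted p = 0.020 and 0.016). Among 12 other NADPH genes, 2 rose and 2 fell in Alc (median 0.03), and 3 rose and 3 fell in Alc UA. Mthfd1 of folate metabolism rose by 0.65 ± 0.11 and the mitochondrial isocitrate dehydrogenase Idh2 by 0.85 ± 0.16 in Alc, and the pentose phosphate epimerase Rpe fell by 0.41 ± 0.10 (adjusted p = 0.00068, 0.0014 and 0.0093). None of these 5 lists had a gene that passed in Alc UA against Alc.

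Targets of the xenobiotic receptors CAR and PXR, which share several GST genes with NRF2, were read as well. Of 13 genes, 10 were tested. Of these, 10 rose in Alc and 9 in Alc UA relative to Ctrl, with 0 lower, beside 10.6% and 10.5% of all genes that rose. Cyp2b10, Cyp2b13 and Cyp2c55 were too low for a test, and Cyp2b10 was at 1.98 FPKM or less in every liver. The summed level of the 13 was 916 to 1972 FPKM in Ctrl, 3674 to 4965 in Alc and 3072 to 4132 in Alc UA. The median log2 difference of the 10 tested was 1.44 in Alc. Cyp2b9 and Abcb1a were low in Ctrl, at 0.060 to 6.19 and 0.23 to 1.09 FPKM, and could enter the test only through the alcohol groups, so the count of 10 holds 2 genes that had to be higher there to be tested. No test was made of the relation between these genes and Gstt3 or Gsta3.

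Variation between livers was shared by many of the 40 genes. Ctrl 1 was the highest of its group in 32 of them, Alc 4 of its group in 29, and Alc UA 5 was the lowest of all 15 livers in 12. Relative to its group mean, Ctrl 1 had a median deviation of 0.41 over the 40 genes and 0.15 over all genes tested on the log2 scale, and Alc 4 had 0.28 and 0.10. Alc UA 5 had -0.25 and -0.10. Ctrl 1 also held the highest summed neutrophil markers, at 52.6 FPKM against 7.76 to 23.4 in the other livers. Its Kupffer cell markers were at 422 FPKM, against 62.8 to 222 in the other controls and 657 in Alc UA 3. Its summed hepatocyte markers were at 36759 FPKM, against 54526 to 58007 in the other controls. Their part in the levels of Ctrl 1 was not tested. Without Ctrl 1 and Alc 4, a choice made after seeing the data, 5 genes were higher and 4 lower in Alc than in Ctrl, and 2 higher and 4 lower in Alc UA than in Ctrl. Among all genes tested these counts were 962 and 1854, and 1169 and 2807.

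**Figure D4:**
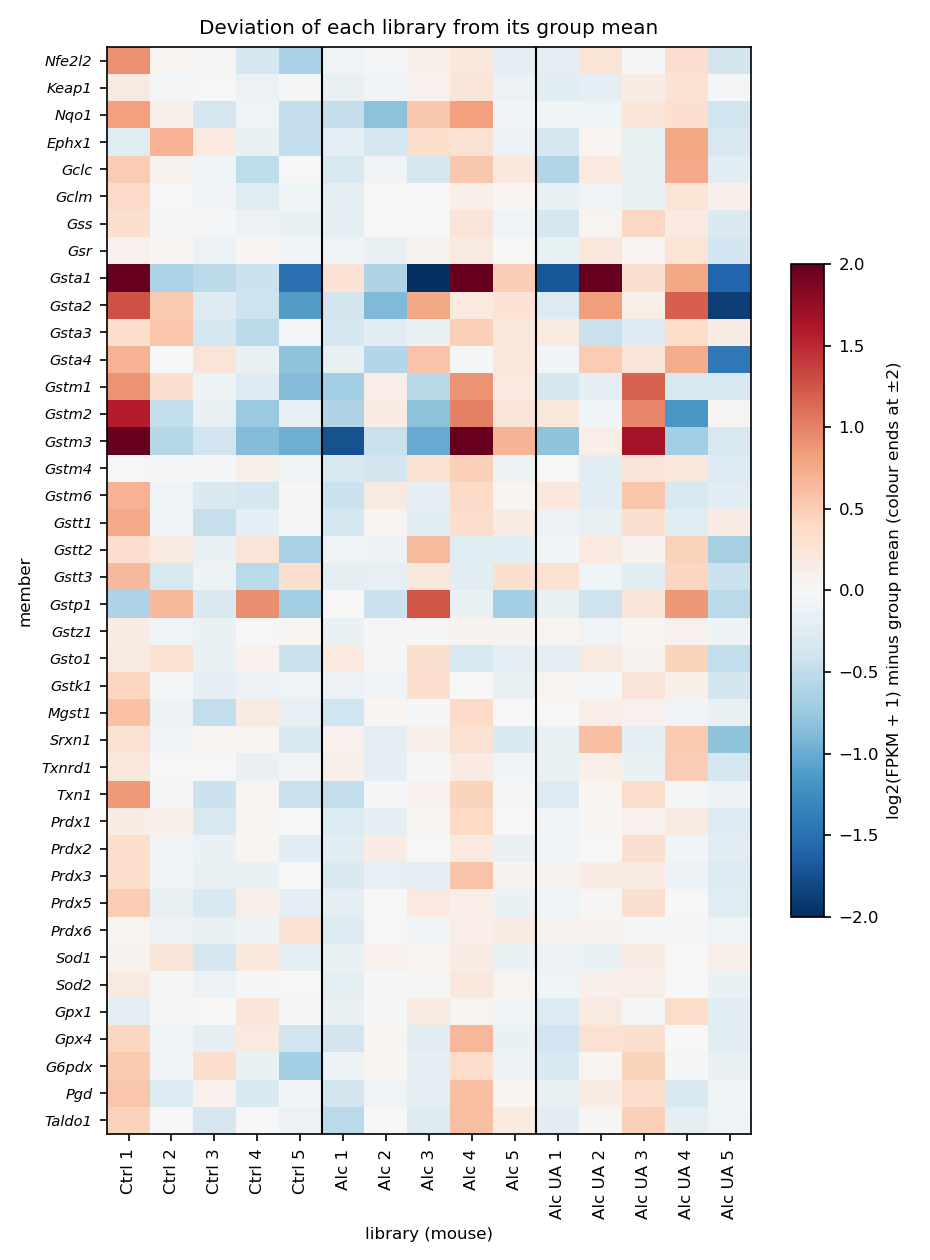
Deviation of each liver from its group mean for the 40 genes tested, as log2(FPKM + 1) minus the group mean (rows are genes by role, columns are livers; red above, blue below, colours end at 2 in either direction). Ctrl 1 and Alc 4 are red in most rows, and Gsta1 and Gstm3 vary most within groups.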

How the data were processed

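RNA from 15 livers was extracted with phenol and chloroform and sequenced on an MGISEQ instrument, per the labels' protocols. Expression came as FPKM for 18510 rows, in a single table that the authors deposited. The submitters' processing notes name StringTie, RSEM 1.2.8, HISAT2 2.1.0, DESeq and Bowtie2 2.2.5 and say nothing of what each did. Genome build, annotation and strand setting: not given in the sources used here. Because FPKM hides the number of reads, no count test and no counting interval was possible. A date stood in place of the symbol in 25 rows, and 223 rows held 0 in every library.

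Values were analysed as log2(FPKM + 1). Genes at 1 FPKM or more in at least 5 of 15 libraries were tested with limma 3.58.1 in R 4.3.3, in 1 model of the 3 groups with eBayes allowing the variance to follow mean expression, 12 residual degrees of freedom and Benjamini-Hochberg adjustment at 0.05 within each of 3 comparisons. A p-value sets a difference against the spread between mice. The genes, the pathway and marker lists and the alternatives were chosen with earlier results of these data known, so counts over them are descriptions. Described by liver were Nfe2l2, Keap1, Nqo1, Gclc, Gclm, Slc7a11, Srxn1, Txnrd1 and every gene of the 41 that passed in a comparison, and of each list up to 3 genes with the smallest adjusted p among those that passed. Hmox1, Gstp2 and the marker and receptor target genes named beside them were outside this rule.

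Alternatives were a pseudocount of 0.1, no filter or one at 5 FPKM, other scalings, no mean trend, library weights, the 2 groups alone, the replicate number as a block, and leaving out livers. The model was tested on simulated data. Over the 3 comparisons it recovered 50% to 60% of simulated log2 changes of 0.5 and 88% to 92% of those of 1. Of its calls there, 2.79% to 5.59% were false. The planned comparison of protein sequences was not made. Promoters were RefSeq sequences of GRCm38.p6, and shared stretches of 50 bases were found in GENCODE M21 transcripts with Python 3.11.15. Figures were drawn with matplotlib 3.10.9.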

Additional observations from a re-analysis of the deposited data

Results flagged for a closer look

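In each of the 3 groups of 5 livers, the highest and lowest value of each of the 40 genes was compared with the nearest of the others. In 16 of 120 groups 1 liver stood apart by more than 0.71 of the group's range (Dixon's critical value for 5 samples), always as the highest. For normally distributed values, chance flags about 1 in 20 groups. The comparison was made on FPKM, which need not be normally distributed, and not on the log2 scale. The genes are also not independent of each other, so the count of flags is not set against chance. Of the 16, 9 were in Ctrl 1. These were Gss at 40 FPKM, Txn1 at 370.5, Prdx3 at 100.1, Gsta1 at 41.29, Gstm2 at 128.7, Gstm3 at 61.84, Gstm6 at 64.77, Gstt1 at 355.2 and Gstk1 at 165.5. Gstm3 was also flagged in Alc 4 at 79.08 FPKM and in Alc UA 3 at 22.02, where Gstm1 stood apart at 1209. Gstp1 at 2115, Gstt2 at 132.6 and Gstk1 at 134.2 FPKM were flagged in Alc 3, and Ephx1 at 303.8 in Alc UA 4.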

How the results depend on the processing

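Counts of genes among the 40 (higher, lower) were 4 and 4 in Alc against Ctrl and 2 and 7 in Alc UA against Ctrl. With median-of-ratios size factors they were 9 and 3, and 5 and 2; after quantile normalization 7 and 3, and 3 and 4; with equal FPKM sums 5 and 3, and 2 and 4; with library weights 5 and 9, and 2 and 12; with the 2 groups alone 2 and 4, and 2 and 4. Without Ctrl 1 and Ctrl 5 they were 7 and 2, and 2 and 5, and without Ctrl 1 and Alc 4, chosen after seeing the data, 5 and 4, and 2 and 4. Among all genes tested the main fit gave 1157 and 2497, and 1152 and 3521. Library weights gave 1821 and 4049, and 1599 and 4062 of the same 10959 genes. Equal FPKM sums gave 1602 and 1294, and 1310 and 2540. The 2 groups alone gave 1027 and 2183, and 991 and 3054. All genes gave 1110 and 2502, and 1064 and 3422 without Ctrl 1 and Ctrl 5. They gave 962 and 1854, and 1169 and 2807 without Ctrl 1 and Alc 4. The cause of these shifts was not tested. Leaving out 1 liver at a time gave, among the 40, 1 to 7 higher and 4 lower in Alc, and 1 to 2 higher and 3 to 11 lower in Alc UA. Among all genes tested the ranges were 845 to 1228 and 1724 to 3357 in Alc. In Alc UA they were 876 to 1274 and 2772 to 4187. Alc UA against Alc gave 0 and 0 among the 40 under all 27 alternatives. The 0.1 pseudocount, the 5 FPKM filter and the fit without a mean trend left the counts among the 40 as they were. Without the filter these were 4 and 3, and 2 and 6, beside 1092 and 2738, and 1103 and 4123 of 18287 genes. No call reversed its sign, and signs of values short of the threshold were not compared. The labels do not say whether a replicate number pairs livers. Correlations of same-numbered livers ran from -0.30 to 0.29, and 3 of 15 livers correlated best with their own number. These values cannot exclude a pairing. The replicate block gave 4 and 4, 0 and 0, and 2 and 8 among the 40. Among all genes it gave 1060 and 2494, 0 and 0, and 1051 and 3483. FPKM hides read depth, and below about 1 FPKM, as for Slc7a11, differences were not tested.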
